A study of Homo sapiens with 8 samples.

Results

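The 35 genes described here encode the machinery that carries newly made secretory and membrane proteins into the endoplasmic reticulum (ER) and out of it again toward the Golgi apparatus. They were chosen by name, as the signal recognition particle, the SEC61 translocon, the translocon-associated protein complex (TRAP), the signal peptidase, the COPII vesicle coat and the KDEL receptors. Of the 26360 genes listed in both deposited tables they make up 35. In all, 31582 genes are listed for the inhibitor experiment and 28942 for the knockdown experiment.

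RNA came from Kyse510, an established human esophageal squamous cell carcinoma line, and was read as pairs of 150 bases in 8 libraries, a single library for each condition. For the inhibitor experiment, Kyse510 cells received vehicle (titled DMSO-con and labelled untreated), 7 µM SP2509, which inhibits the histone demethylase LSD1, 7 µM UNC0642, which inhibits the histone methyltransferase G9a, or SP2509 and UNC0642 together, whose doses are not given separately, each for 2 days. For the knockdown experiment, Kyse510 cells carried an inducible hairpin against LSD1 (shLSD1) or against G9a (shG9a) from a puromycin vector, were selected for 14 days as stable clones, and then stayed without doxycycline (Dox) or received it for 2 days. The control of each knockdown used here is, by the labels, the same hairpin line without Dox, although the study's text names a nonsilencing hairpin as its control. No library with a nonsilencing hairpin was analysed here, and how many clones a line holds is not given.

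Proteins with a signal sequence are recognised on the ribosome by the signal recognition particle, which docks on its receptor at the ER and hands the nascent chain to the SEC61 channel. TRAP assists insertion at the channel, and the signal peptidase removes the signal sequence. Folded cargo then leaves in vesicles coated with COPII, and escaped ER chaperones are brought back from the Golgi by KDEL receptors. In secretory cells many of these genes are known targets of the unfolded protein response, through the transcription factors XBP1 and ATF6.

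A well-known DNA element of that response has the core letters TGACGTGG. RefSeq promoters (GRCh38.p14, 250 bases before to 50 after a listed start) were given for 31 of the 35 genes, 43 promoters in all, and none was listed for SEC24D, SPCS1, KDELR2 and TRAM1. The core, searched on both strands, is in 7 of the 43 (16.3%), 1 for each of KDELR3, SEC16A, SEC23A, SEC24A, SEC62, SRP19 and SSR3, against 0.729% of the 35116 promoters given for all genes. The shorter ACGTGG, which lies inside the core, is in 22 of the 43 (51.2%, 16 genes) against 9.72% of all. The 5 letters CCACG, which overlap both on the opposite strand, are in 34 (79.1%) against 38.1%, and CCAAT is in 16 (37.2%) against 34.6%. Both spaced forms, the ER stress element and ER stress element II, are in 0 of the 43, against 0.0769% and 0.0541% of all promoters. These are letter matches and not measured binding.

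The 7 windows that hold the core are printed 5′ to 3′ on the strand of the gene, with the core or its reverse complement in capitals, because they are the sequence feature in which the chosen genes stand above all promoters. They lie at chr22:38468039-38468068 (KDELR3, + strand), chr9:136484707-136484736 (SEC16A, - strand), chr14:39103221-39103250 (SEC23A, - strand), chr5:134648595-134648624 (SEC24A, + strand), chr3:169966779-169966808 (SEC62, + strand), chr5:112861164-112861193 (SRP19, + strand) and chr3:156554148-156554177 (SSR3, - strand).
KDELR3: ggccgccctggCCACGTCAccgcccggcca
SEC16A: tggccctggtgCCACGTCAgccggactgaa
SEC23A: tcccctcctctTGACGTGGcagaggcggcg
SEC24A: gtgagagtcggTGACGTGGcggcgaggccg
SEC62: ccctcctcgctCCACGTCAgagggaaccgg
SRP19: aagtcttcatgCCACGTCAgagactagaga
SSR3: tctgataacagCCACGTCAgcaaggaaact

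The promoters of SEC61A1 and SEC61G are printed as well, because these channel subunits moved in opposite directions with each single inhibitor. Shown are the 250 bases before the start, for SEC61A1 the second of 2 listed starts (chr3:128052187-128052436, + strand) and for SEC61G the only listed start (chr7:54759212-54759461, - strand), with CCACG and CCAAT in capitals on whichever strand they occur. Neither holds TGACGTGG.
SEC61A1: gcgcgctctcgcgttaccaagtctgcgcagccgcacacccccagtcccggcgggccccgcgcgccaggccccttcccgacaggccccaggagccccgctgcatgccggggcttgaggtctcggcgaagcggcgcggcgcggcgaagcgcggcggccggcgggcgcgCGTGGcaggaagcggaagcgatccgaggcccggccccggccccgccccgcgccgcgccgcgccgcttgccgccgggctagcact
SEC61G: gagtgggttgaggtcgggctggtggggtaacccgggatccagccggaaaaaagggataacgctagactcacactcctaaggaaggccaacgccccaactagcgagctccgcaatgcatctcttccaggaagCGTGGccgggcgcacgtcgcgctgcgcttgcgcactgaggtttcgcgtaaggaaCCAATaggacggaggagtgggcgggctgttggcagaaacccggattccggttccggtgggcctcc

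Values are FPKM, fragments scaled by gene length and library total, and the reads behind them were recovered from the FPKM steps. Library totals were 15662035 to 17889466 reads. A gene counted as upregulated or downregulated when (FPKM + 1) differed at least 1.3-fold, either library reached 1 FPKM, and the recovered reads differed at an unadjusted p below 0.05 in an exact binomial test, two-sided. This test compares 2 libraries and covers counting error only, and none of the differences between conditions could be checked against replicates. Folds are ratios of FPKM with the 95% exact binomial interval in parentheses, and log2 values are on the (FPKM + 1) scale, which understates changes of weakly expressed genes. FPKM is a share of each library's RNA, and in bulk RNA fewer cells of a type and less RNA per cell cannot be told apart. Levels were compared only within a table, since 3 of the 35 genes (SEC23B, SRP19 and SRP72) have other positions in the second table.

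As a check of the labels, KDM1A, which encodes LSD1, had 26.0 FPKM without and 6.29 with Dox in the shLSD1 line (two-sided exact binomial p = 1.93e-270), and 26.4 and 35.8 FPKM in the shG9a line. EHMT2, which encodes G9a, had 7.85 and 4.76 FPKM in the shG9a line (two-sided exact binomial p = 3.42e-22), and 7.998 and 7.97 FPKM in the shLSD1 line. In the inhibitor table, where the target protein and not its RNA is inhibited, KDM1A was at 32.0 to 40.7 FPKM and EHMT2 at 10.2 to 11.1 FPKM, except 5.38 FPKM of EHMT2 with both inhibitors. Of 9 squamous epithelial markers, 7 were at 1 FPKM or more in all 8 libraries, and the sum over the 9 was 830 to 5053 FPKM. The others were KRT6A, at 0.676 FPKM with vehicle, and SOX2, at 18.3 FPKM with vehicle and 0.313 with SP2509. Within the sum, KRT17 ranged from 158 to 3716 FPKM. Summed markers of fibroblasts were 3.23 to 6.96 FPKM, of leukocytes 0.0365 to 2.73 and of endothelium 3.56 to 14.5, and their part in the results was not tested. COL1A1 made up most of the fibroblast sum (2.92 to 5.36 FPKM), CDH5 most of the endothelial sum (3.28 to 14.02 FPKM), and CD14 reached 2.67 FPKM among the leukocyte markers, while the leukocyte marker PTPRC was at most 0.0425 FPKM and the fibroblast marker DCN at most 0.0494.

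More of the secretory machinery was downregulated than of all genes with SP2509 and in the shG9a line with Dox. With SP2509, 22 of the 35 genes (62.9%) were downregulated and 2 (5.71%) upregulated, where 37.5% and 18.2% of the 13342 genes tested were called down and up. With Dox in the shG9a line, 14 (40.0%) were downregulated and 3 (8.57%) upregulated, against 15.8% and 30.0% of 13080 genes. With UNC0642, 5 (14.3%) were downregulated, which is near the 14.0% of 13244 genes, and 3 (8.57%) upregulated, against 15.8%. With both inhibitors, 11 (31.4%) were upregulated, near the 29.0% of 13907 genes, and 4 (11.4%) downregulated, against 29.1%. With Dox in the shLSD1 line, 4 (11.4%) were downregulated, near the 10.4% of 12970 genes, and 2 (5.71%) upregulated, against 22.7%.

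In the hairpin lines the genes at 5 FPKM or more had themselves shifted, by a median of 0.11 (shLSD1) and 0.14 (shG9a) on the log2 scale. Relative to this shift, 9 of the 35 genes were downregulated and 0 upregulated in the shLSD1 line, where 14.3% and 15.0% of all genes tested were called. In the shG9a line 21 were downregulated and 2 upregulated, against 20.5% and 20.2%. The calls that centring added in the shLSD1 line were SEC63, SRP72, SSR3, SEC24C and KDELR3, and in the shG9a line SSR2, SPCS3, SEC13, SEC24A, SEC24B, SEC31A and KDELR2, all as lower. The same centring on the median ended the calls of SEC62, SRP54 and SPCS2 with SP2509, of SEC31A with both inhibitors, of SRP14 and SAR1B in the shLSD1 line and of SPCS1 in the shG9a line.

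The median log2 change of the 35 genes was -0.54 with SP2509, where that of all genes tested was -0.21. It was -0.05 with UNC0642 and 0.09 with both inhibitors, against -0.01 and -0.02 for all genes. In the shLSD1 line it was -0.10 against 0.13, and in the shG9a line -0.28 against 0.18. The 3 inhibitor comparisons share the vehicle library, so they are not independent of each other. All 35 genes passed the filter of 1 FPKM in the inhibitor comparisons and 34 in the knockdown comparisons, where SRP19 was below it. Over the 5 comparisons, 16 of the 35 were only ever downregulated, 2 only upregulated, 14 both, and 3 (SRP68, SEC11A and KDELR1) were never called. These patterns were not counted over all genes, so they do not set the 35 apart from other genes.

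**Figure D1:**
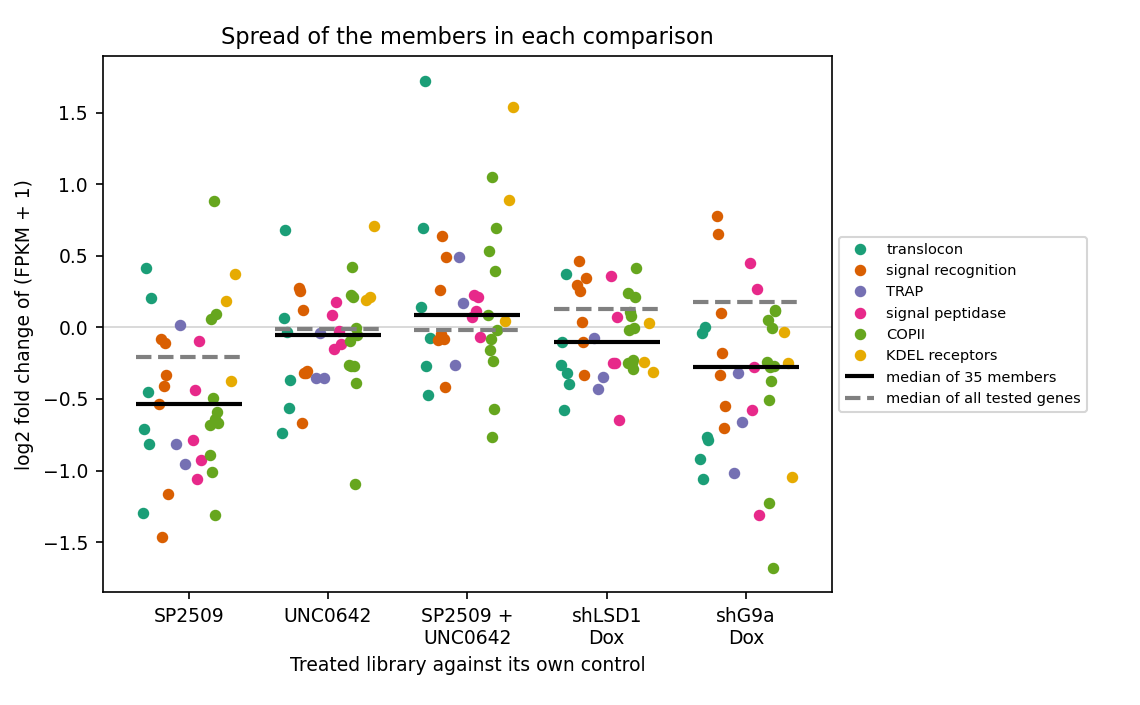
Each point is the log2 fold change of (FPKM + 1) of 1 of the 35 genes, coloured by its machinery, in each of the 5 comparisons of a treated library with its own control; the black line is their median and the dashed grey line the median of all genes tested. The black line lies below the grey line with SP2509 (-0.54 against -0.21) and in the shG9a line (-0.28 against 0.18).

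The uninduced libraries of both lines, which received neither Dox nor inhibitor, show how far 2 libraries of different lines lie apart. Between them, 1 of the 35 genes was higher in the shG9a line and 0 were lower, where 1.36% and 2.16% of 12449 genes were called. The gene was SEC24D, at 7.01 FPKM in the shLSD1 line and 9.78 in the shG9a line. On the log2 scale of shG9a over shLSD1, 31 of the 35 were above 0, and their median was 0.11 against 0.005 for all genes tested. The share of all genes above 0 was not counted.

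**Figure D2:**
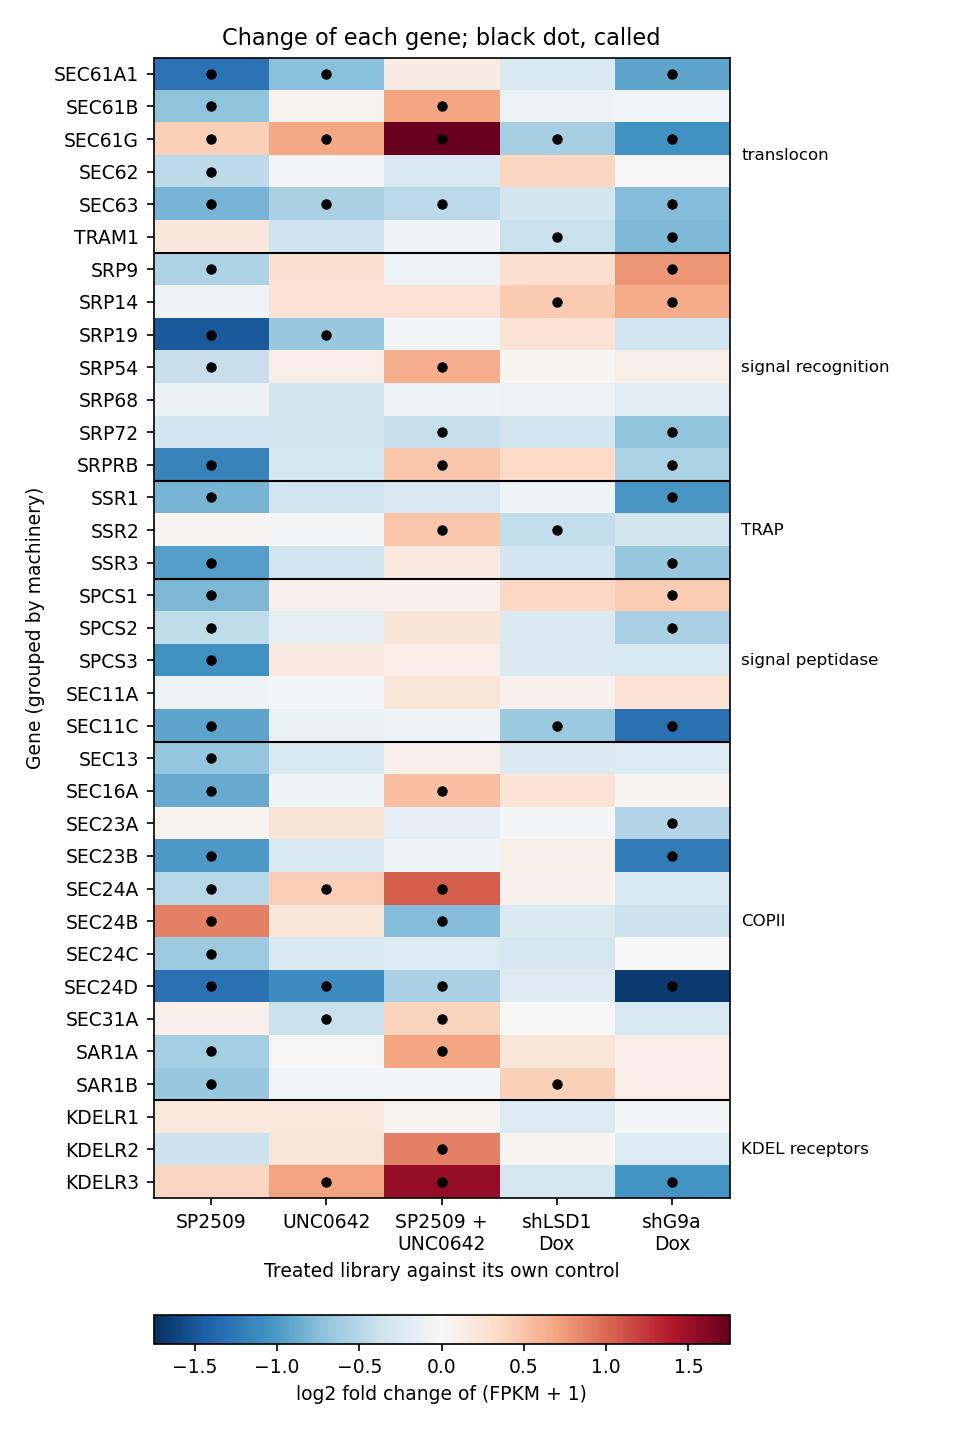
The colour gives the log2 fold change of (FPKM + 1) of each of the 35 genes (rows, grouped by machinery) in the 5 comparisons (columns), and a black dot marks a called gene. Blue with dots fills most of the SP2509 column (22 downregulated genes), SEC24D is blue in all 5 columns and called in 4 of them, and the darkest red is SEC61G with both inhibitors (1.72).

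Of the signal recognition genes, SRP19 stood out with SP2509. SRP19 (ENSG00000153037, chr5:112861222-112869788) encodes a small protein that helps the particle assemble, and stood at 2.72 FPKM with vehicle, 0.343 after SP2509, 1.34 after UNC0642 and 2.60 after both. It was 7.91-fold lower with SP2509 (5.04 to 12.99; 153 and 22 reads, two-sided exact binomial p = 2.2e-29) and 2.03-fold lower with UNC0642 (1.55 to 2.68). With both inhibitors together it was not called, at 158 reads against 153. The knockdown table gives this gene a longer extent (10517 against 3598 bases of transcript), and there it had 0.423 and 0.695 FPKM without and with Dox in the shLSD1 line and 0.765 and 0.401 in the shG9a line.

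SRP9 and SRP14 encode the pair of proteins that bind the Alu domain of the particle and pause elongation. SRP9 stood at 173 FPKM with vehicle, 119 after SP2509, 210.3 after UNC0642 and 163 after both. In the shLSD1 line it had 118 without and 145 with Dox, and in the shG9a line 121 and 209, a 1.72-fold rise (1.65 to 1.79) and the largest rise of the 35 genes there. SP2509 was thus the only comparison in which SRP9 was downregulated.

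SRP14 had 74.1, 70.1, 88.4 and 88.9 FPKM with vehicle, SP2509, UNC0642 and both, and was called in none of these comparisons. It rose with Dox from 68.8 to 95.2 FPKM in the shLSD1 line (1.38-fold, 1.31 to 1.46) and, in the shG9a line, from 71.1 to 112 FPKM (1.58-fold, 1.503 to 1.67). Both partners of the Alu domain were therefore upregulated in the shG9a line, where most called genes of the machinery were lower. A processed pseudogene of SRP9, SRP9P1, reached 24.2 FPKM in the inhibitor table and 7.08 in the knockdown table, so some reads of SRP9 could have been split with it.

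Of the other targeting genes, SRPRB, SRP54 and SRP72 were called in at least 1 comparison and SRP68 in none. SRPRB, the membrane-anchored subunit of the particle's receptor, was lower with SP2509 (18.4 to 7.63 FPKM, 2.41-fold, 2.18 to 2.66) and in the shG9a line (11.7 to 7.67 FPKM), and higher with both inhibitors (26.2 FPKM). SRP54, the GTPase subunit that binds the signal sequence, was at 23.0 FPKM with vehicle, 17.1 with SP2509 and 36.4 with both inhibitors, and was called in these 2 comparisons only. SRP72 was downregulated with both inhibitors and in the shG9a line, at 1.35-fold and 1.69-fold lower, and SRP68, its partner in the particle, kept to 11.998 to 15.2 FPKM over all 8 libraries.

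In the translocon, the SEC61 channel subunits did not move together. SEC61A1 (ENSG00000058262, chr3:128051641-128071683) encodes the pore itself, and stood at 96.8 FPKM with vehicle, 38.8 after SP2509, 57.8 after UNC0642 and 107 after both. It had 105 and 87.3 FPKM without and with Dox in the shLSD1 line, and 128 and 67.1 in the shG9a line. SEC61A1 was 2.49-fold lower with SP2509 (2.39 to 2.60), 1.68-fold lower with UNC0642 (1.61 to 1.74) and 1.91-fold lower with Dox in the shG9a line (1.85 to 1.97), and was not called in the remaining comparisons.

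SEC61G (ENSG00000132432, chr7:54752250-54759974), a small single-span subunit, had 22.7, 30.6, 36.9 and 77.2 FPKM with vehicle, SP2509, UNC0642 and both. All 3 inhibitor libraries were thus above vehicle. The rise was 1.35-fold with SP2509 (1.22 to 1.49), 1.63-fold with UNC0642 (1.48 to 1.79) and 3.40-fold with both (3.12 to 3.72, two-sided exact binomial p = 6.85e-205). By FPKM the rise of KDELR3 with both was larger (3.60-fold), and on the log2 scale that of SEC61G was the largest of the 35 genes (1.72). With Dox the direction was the opposite, from 32.4 to 21.4 FPKM in the shLSD1 line (1.51-fold lower, 1.37 to 1.67) and from 34.99 to 16.3 FPKM in the shG9a line (2.15-fold lower, 1.93 to 2.39).

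SEC61B, the other single-span subunit, had 39.8, 23.9, 41.6 and 65.0 FPKM with vehicle, SP2509, UNC0642 and both, and was downregulated with SP2509 and upregulated with both. In the knockdown arm it had 69.0 and 64.3 FPKM in the shLSD1 line and 73.8 and 71.7 in the shG9a line, and was not called. As a share of the summed FPKM of the trimer, SEC61G was 14.2% with vehicle, 32.7% after SP2509, 27.1% after UNC0642 and 31.0% after both. In the shLSD1 line its share was 15.7% without and 12.3% with Dox, and in the shG9a line 14.8% and 10.49%.

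**Figure D3:**
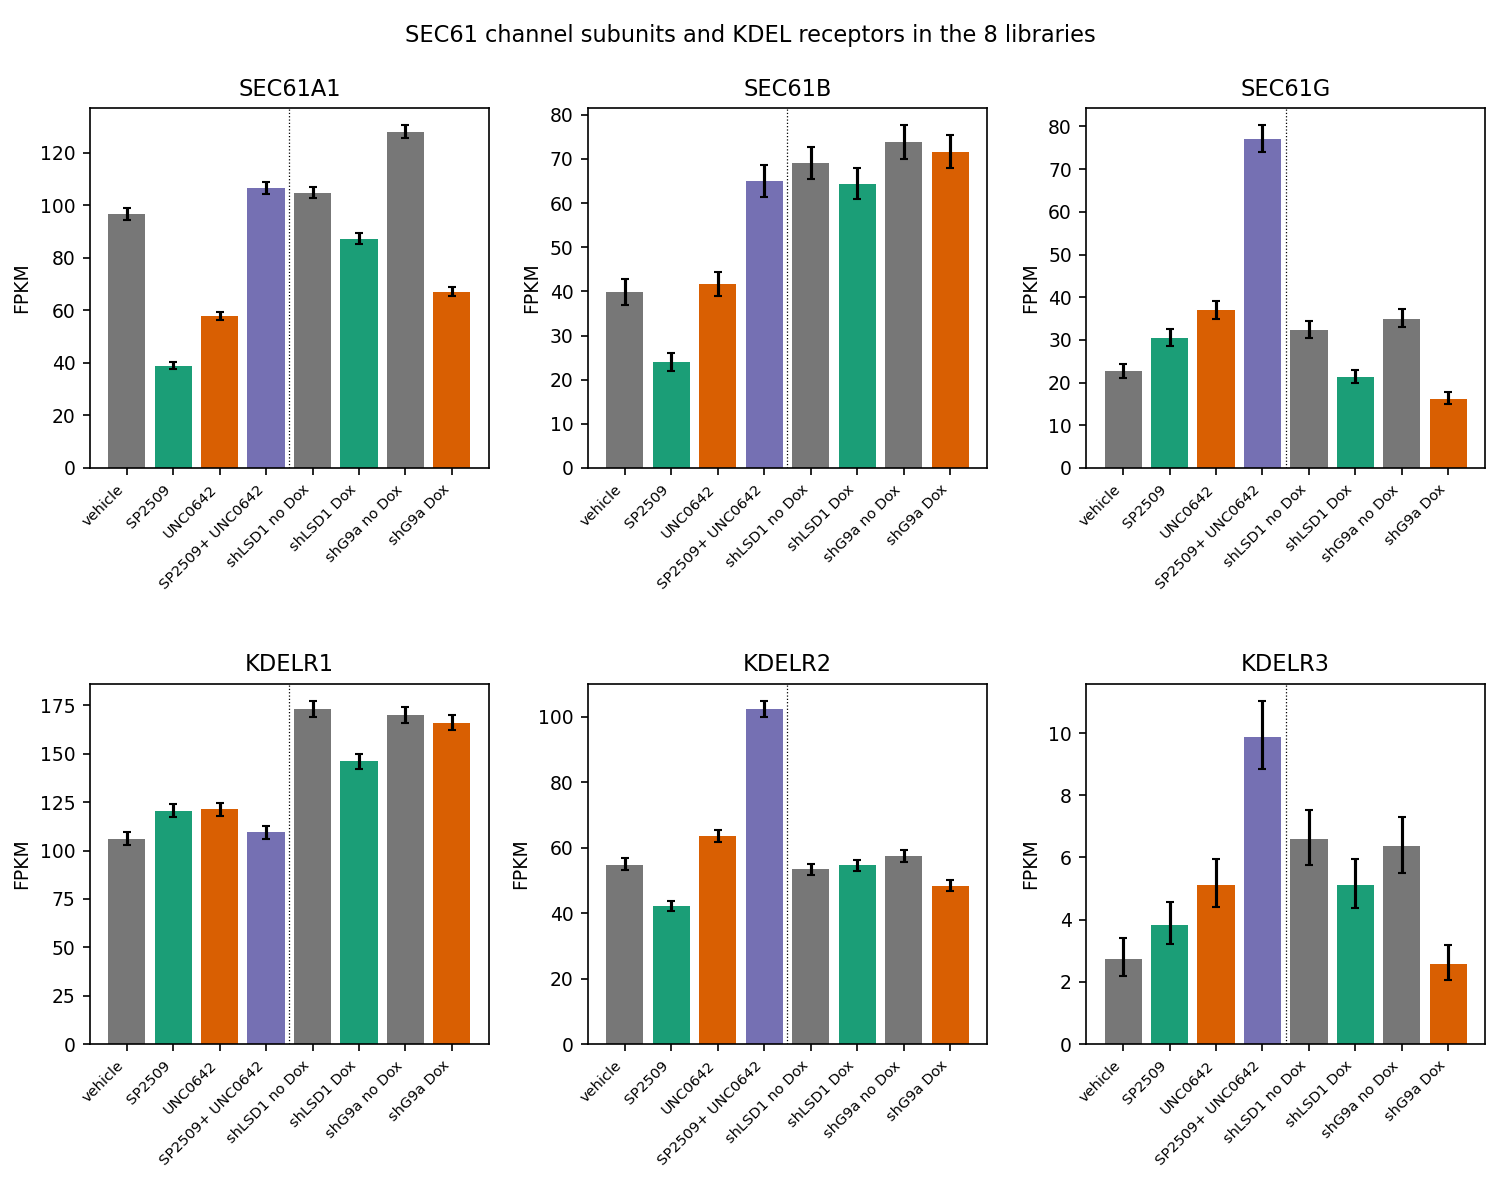
Bars give FPKM in each of the 8 libraries for the 3 SEC61 channel subunits (top) and the 3 KDEL receptors (bottom), each with its own axis from 0; error bars are 95% exact Poisson intervals of the reads and cover counting error only, and the dotted line separates the 2 tables. SEC61G, KDELR2 and KDELR3 are highest of the 4 inhibitor-table libraries with both inhibitors (77.2, 102 and 9.89 FPKM), while SEC61A1 is low with SP2509 (38.8 FPKM) and with UNC0642 (57.8 FPKM).

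SEC63, a membrane J-domain protein that recruits the chaperone BiP to the channel, had 29.5, 16.4, 19.6 and 21.0 FPKM with vehicle, SP2509, UNC0642 and both. It had 25.6 and 20.3 FPKM without and with Dox in the shLSD1 line, and 27.4 and 15.7 in the shG9a line. SEC63 was downregulated in all 3 inhibitor comparisons and in the shG9a line, at 1.81-fold, 1.504-fold, 1.41-fold and 1.74-fold lower. Its partner SEC62 had 16.5, 11.8, 16.1 and 13.5 FPKM in the inhibitor table, 10.6 and 14.0 in the shLSD1 line and 11.5 and 11.5 in the shG9a line, and was called only with SP2509, as lower. TRAM1, a membrane protein next to the channel, was downregulated in both knockdown lines, from 78.3 to 59.4 and from 84.4 to 48.5 FPKM, and in no inhibitor comparison.

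The TRAP subunits differed among themselves. SSR1 (23.8 to 13.1 FPKM) and SSR3 (50.7 to 25.6 FPKM) were downregulated with SP2509 and again in the shG9a line (21.9 to 10.3 and 49.4 to 30.9 FPKM). SSR2 had 28.3, 28.7, 27.6 and 40.2 FPKM with vehicle, SP2509, UNC0642 and both, 24.3 and 17.8 in the shLSD1 line and 23.4 and 18.5 in the shG9a line. With both inhibitors SSR2 was upregulated (1.42-fold, 1.35 to 1.49), while SSR1 and SSR3 were not called. SSR4, a TRAP subunit outside the chosen genes, was also upregulated with both inhibitors (12.4 to 22.3 FPKM, 1.80-fold, 1.66 to 1.96). SSR2 was downregulated in the shLSD1 line (1.37-fold lower, 1.29 to 1.45). SSR3 was 1.28-fold lower there, at 39.4 and 30.8 FPKM, and was called only after centring on the median or against the mean of both uninduced lines.

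The signal peptidase holds either of 2 catalytic subunits, SEC11A and SEC11C, and they behaved differently. SEC11A had 14.8, 13.8, 14.6 and 17.4 FPKM in the inhibitor table, 16.1 and 16.9 in the shLSD1 line and 17.1 and 20.8 in the shG9a line, and was never called. SEC11C (ENSG00000166562, chr18:59139477-59158836) had 5.29, 2.32, 4.80 and 5.02 FPKM with vehicle, SP2509, UNC0642 and both, 7.43 and 4.39 in the shLSD1 line and 9.01 and 3.03 in the shG9a line. It was 2.29-fold lower with SP2509 (1.91 to 2.74), 1.69-fold lower in the shLSD1 line (1.48 to 1.94) and 2.97-fold lower in the shG9a line (2.56 to 3.46).

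SEC11C thus went from 26.3% to 14.3% of the summed FPKM of the pair with SP2509, from 31.6% to 20.6% with Dox in the shLSD1 line and from 34.5% to 12.7% in the shG9a line. The noncatalytic subunits SPCS1, SPCS2 and SPCS3 were all downregulated with SP2509, SPCS3 most (22.3 to 10.1 FPKM, 2.20-fold, 2.05 to 2.35). SPCS1 had 14.3, 7.88, 15.3 and 15.1 FPKM in the inhibitor table and 11.6 and 15.2 in the shLSD1 line, and in the shG9a line rose from 12.2 to 17.0 FPKM (1.39-fold, 1.29 to 1.51), while SPCS2 was downregulated there (51.8 to 34.4 FPKM). SPCS1 overlaps GLT8D1 and NEK4 on the opposite strand, as SEC61A1 overlaps RUVBL1, and the sources used here do not give a strand setting for the counting.

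In the COPII coat, the SEC24 adaptors, which pick the cargo, differed in direction while their sum in the inhibitor table stayed nearly level. Summed FPKM of the 4 adaptors was 38.3 with vehicle, 37.3 after SP2509, 35.7 after UNC0642 and 35.8 after both. SEC24B (ENSG00000138802, chr4:109433772-109540896) had 12.2, 23.3, 14.2 and 6.75 FPKM, and was 1.92-fold higher with SP2509 (1.78 to 2.07) and 1.80-fold lower with both inhibitors (1.62 to 2.00). Its share of the sum went from 31.7% with vehicle to 62.6% with SP2509 and to 18.9% with both.

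SEC24A (ENSG00000113615, chr5:134648789-134727823), the closest relative of SEC24B, had 6.30, 4.18, 8.80 and 14.2 FPKM. With SP2509 and with both inhibitors it moved opposite to SEC24B. With UNC0642 both genes were above vehicle, SEC24B without a call. SEC24A was 1.51-fold lower with SP2509 (1.35 to 1.69), 1.40-fold higher with UNC0642 (1.27 to 1.54) and 2.25-fold higher with both (2.06 to 2.45), where it made up 39.5% of the adaptors against 16.5% with vehicle. In the knockdown table SEC24A had 4.72 and 5.04 FPKM in the shLSD1 line and 5.80 and 4.603 in the shG9a line, and SEC24B 9.67 and 7.97 and then 9.92 and 7.42. Neither was called in either line.

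SEC24D (ENSG00000150961, chr4:118722823-118838683) was downregulated in 4 of the 5 comparisons, and in the shLSD1 line also against the mean of both uninduced lines. It had 8.54, 2.85, 3.47 and 5.44 FPKM with vehicle, SP2509, UNC0642 and both, and was 2.999-fold lower with SP2509 (2.70 to 3.33), 2.46-fold lower with UNC0642 (2.24 to 2.72) and 1.57-fold lower with both (1.44 to 1.71). With Dox it went from 9.78 to 2.36 FPKM in the shG9a line, 4.14-fold lower (3.71 to 4.62; two-sided exact binomial p = 4.15e-180), the largest fall of the 35 genes in that comparison. The uninduced shG9a library stood above that of the shLSD1 line, which had 7.01 without and 5.84 FPKM with Dox, yet 2.36 FPKM is the lowest of all 4.

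SEC24C, the closest relative of SEC24D, had 11.3, 6.91, 9.21 and 9.46 FPKM in the inhibitor table, 7.01 and 5.55 in the shLSD1 line and 7.63 and 7.62 in the shG9a line, and was downregulated with SP2509 only. In the shG9a line the adaptors summed to 33.1 FPKM without and 22.01 with Dox, and the share of SEC24D went from 29.5% to 10.7%. In the shLSD1 line the sums were 28.4 and 24.4 FPKM with 24.7% and 23.95% as SEC24D.

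**Figure D4:**
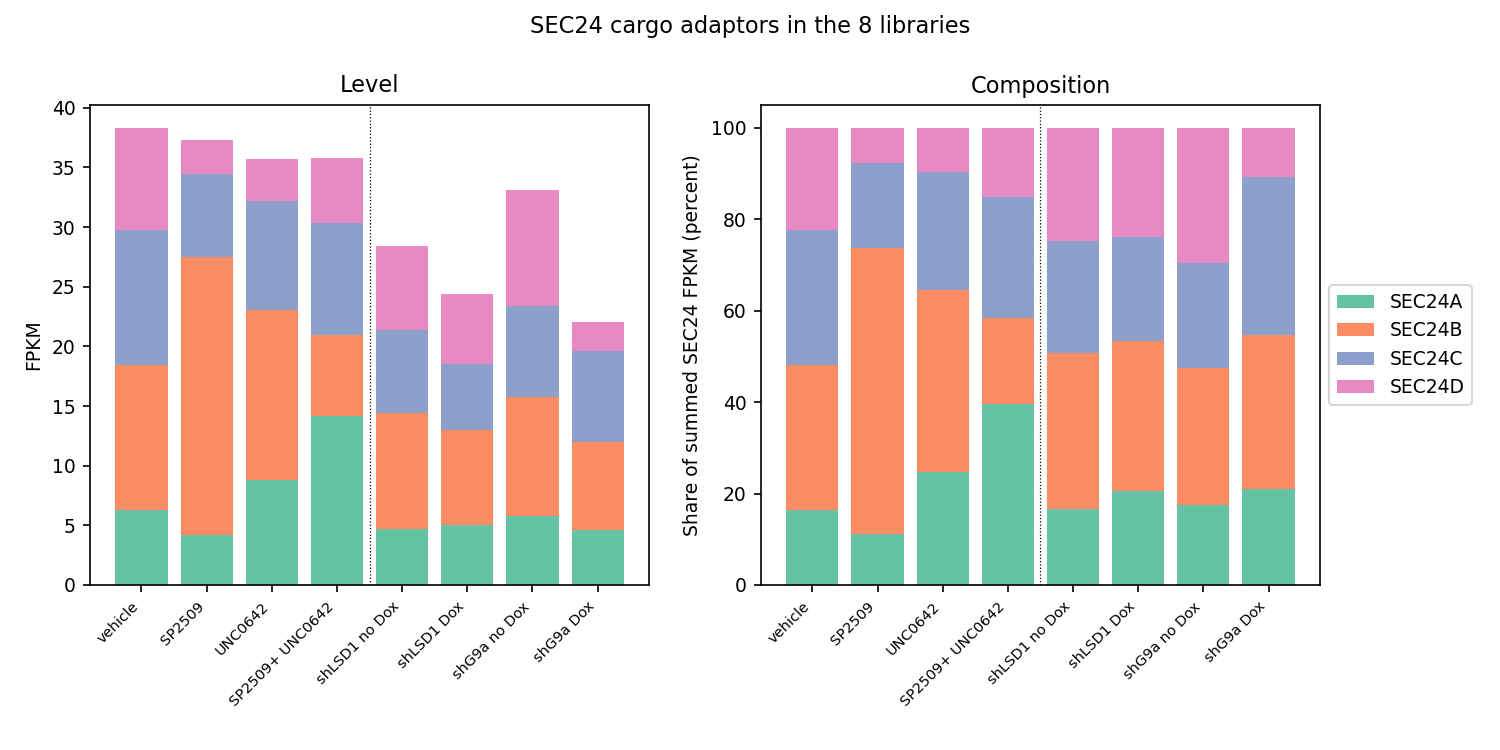
Stacked bars give the FPKM of the 4 SEC24 adaptors (left) and their shares of the summed SEC24 FPKM in percent (right) in each of the 8 libraries, with 1 library per bar and the dotted line between the 2 tables. SEC24B is the widest band with SP2509 (62.6%), SEC24A with both inhibitors (39.5%), and SEC24D shrinks from 22.3% with vehicle to 7.64% with SP2509 and 9.71% with UNC0642, and to 10.7% with Dox in the shG9a line.

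In the inner coat, SEC23B was downregulated in more comparisons than its paralog SEC23A. SEC23B (ENSG00000101310, chr20:18507493-18561415), whose product activates the GTPase SAR1, had 24.4, 11.6, 20.1 and 23.1 FPKM with vehicle, SP2509, UNC0642 and both, 14.0 and 15.1 in the shLSD1 line and 18.1 and 7.14 in the shG9a line. It was 2.10-fold lower with SP2509 (1.93 to 2.29) and 2.53-fold lower in the shG9a line (2.29 to 2.80). SEC23A had 5.60, 5.86, 6.73 and 4.91 FPKM, then 4.04 and 3.99, then 4.62 and 2.95, and was downregulated in the shG9a line only (1.57-fold, 1.39 to 1.77). With Dox in that line the pair summed to 10.1 FPKM, against 22.7 without.

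SAR1A, the GTPase that starts coat assembly, had 13.6, 8.71, 13.6 and 22.6 FPKM in the inhibitor table, and was downregulated with SP2509 and upregulated with both inhibitors (1.66-fold, 1.56 to 1.77). In the knockdown table it had 9.89 and 11.6 FPKM and then 11.1 and 12.03, and was not called. SAR1B had 4.65, 2.55, 4.45 and 4.58 FPKM, then 3.58 and 5.11 in the shLSD1 line, where it rose 1.43-fold (1.29 to 1.58), and 4.06 and 4.51 in the shG9a line. SAR1B and SEC24A lie on opposite strands and overlap by 483 bases.

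Of the remaining coat genes, SEC16A, which organises ER exit sites, was 1.93-fold lower with SP2509 (21.9 to 11.4 FPKM) and 1.47-fold higher with both (32.1 FPKM). SEC13, an outer coat subunit shared with the nuclear pore, was downregulated with SP2509 only (14.9 to 8.92 FPKM). Its partner SEC31A was lower with UNC0642 and higher with both inhibitors, at 15.8 and 27.9 FPKM against 21.0 with vehicle, and overlaps the gene THAP9-AS1, which reached 15.0 FPKM.

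Of the KDEL receptors, KDELR2 and KDELR3 were upregulated with both inhibitors. KDELR1 had 106, 121, 121 and 109 FPKM with vehicle, SP2509, UNC0642 and both, 173 and 146 in the shLSD1 line and 170.0 and 166 in the shG9a line, and was never called. KDELR2 had 54.9, 42.1, 63.7 and 102 FPKM, then 53.4 and 54.6, then 57.6 and 48.4, and was upregulated with both inhibitors (1.87-fold, 1.79 to 1.94). With SP2509 its log2 change of -0.38 was just under the fold threshold, and it was called down with a pseudocount of 0.1. With both inhibitors KDELR2 thus came near the level of KDELR1.

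KDELR3 (ENSG00000100196, chr22:38468062-38483447), the weakest of the receptors, had 2.75, 3.84, 5.13 and 9.89 FPKM with vehicle, SP2509, UNC0642 and both. It was 1.87-fold higher with UNC0642 (1.43 to 2.45) and 3.60-fold higher with both (2.82 to 4.64; 83 and 322 reads, two-sided exact binomial p = 1.2e-30), and with SP2509 its change of 0.37 on the log2 scale was also just under the threshold, and it was called up with that pseudocount or after centring on the median. In the knockdown table it had 6.60 and 5.12 FPKM in the shLSD1 line and 6.36 and 2.57 in the shG9a line, where it was 2.47-fold lower (1.91 to 3.22). Like SEC61G, KDELR3 was above vehicle in all 3 inhibitor libraries and below its control in both knockdown lines.

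Set against the promoter letters, 5 of the 7 genes with TGACGTGG were downregulated with SP2509. So were 15 of the 24 with a listed promoter lacking it, against 37.5% of all genes tested. In the shG9a line the counts were 3 of 7 and 9 of 24, against 15.8%. With UNC0642, 2 of the 7 were upregulated and 1 downregulated, and 1 and 3 of the 24, against 15.8% and 14.0%. With both inhibitors 3 of the 7 were upregulated (KDELR3, SEC16A and SEC24A) and 7 of the 24, against 29.0%. In the shLSD1 line none of the 7 was called in either direction, and 5 of the 24 were. There 22.7% of all genes were upregulated and 10.4% downregulated. SEC24D, the gene downregulated in the most comparisons of the inhibitor arm together with SEC63, has no promoter in the table.

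Regulators of the unfolded protein response and their related factors were also measured. HSPA5, the ER chaperone BiP and a sensitive marker of the response, had 1462, 511, 251 and 627 FPKM with vehicle, SP2509, UNC0642 and both, 1195 and 404 in the shLSD1 line and 1551 and 102 in the shG9a line, and was downregulated in all 5 comparisons. XBP1 had 77.2, 38.5, 24.3 and 39.7 FPKM in the inhibitor table, 61.4 and 86.2 in the shLSD1 line and 68.6 and 29.0 in the shG9a line, so it was downregulated in 4 comparisons and upregulated in the shLSD1 line, a call that ended after centring on the median (0.37 on the log2 scale). These levels are of all XBP1 RNA and say nothing of its spliced form.

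ATF6, a membrane-bound factor of the response, had 18.6, 12.002, 12.6 and 9.42 FPKM in the inhibitor table, 15.0 and 14.5 in the shLSD1 line and 15.7 and 9.88 in the shG9a line. CREB3L2, a related factor known to act on COPII genes in cartilage, had 8.57, 2.72, 2.33 and 2.93 FPKM, then 4.41 and 3.79, then 5.13 and 1.90. Both were downregulated with each inhibitor, with both inhibitors and in the shG9a line, and not called in the shLSD1 line. CREB3L1 had 1 read with vehicle, 0 after SP2509, 6 after UNC0642 and 55 after both inhibitors, and 0 to 2 reads in the hairpin lines, which is below 1 FPKM in every library. Counted as a list of 10 regulators, 0 were upregulated and 5 downregulated with SP2509, 0 and 5 with UNC0642, 1 and 5 with both, 2 and 1 in the shLSD1 line and 0 and 6 in the shG9a line. Of all genes tested, 37.5%, 14.0%, 29.1%, 10.4% and 15.8% were downregulated in these comparisons, in this order. Upregulated were 18.2%, 15.8%, 29.0%, 22.7% and 30.0%.

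Genes that work beside the 35 were counted in the same way. Of all genes tested, 18.2% were upregulated and 37.5% downregulated with SP2509, 15.8% and 14.0% with UNC0642, and 29.0% and 29.1% with both. In the shLSD1 line the shares were 22.7% and 10.4%, and in the shG9a line 30.0% and 15.8%. The counts of the further lists below are to be read against these same shares. The shares are over genes that passed the filter of 1 FPKM, while genes of a list below it could not be called. In every comparison 8 of the 10 regulators, 10 of the 11 genes of the COPI list and 11 of the 13 of the insertion list passed. Of the 11 further genes of the same machinery, 9 passed in the inhibitor comparisons and 10 in the hairpin lines. Of 14 cargo receptors and p24 proteins, which load and shape ER-Golgi vesicles, 1 was upregulated and 5 downregulated with SP2509, 1 and 2 with UNC0642, 4 and 2 with both, 0 and 4 in the shLSD1 line and 0 and 8 in the shG9a line. The downregulated 35.7% with SP2509 and 14.3% with UNC0642, and the upregulated 28.6% with both, were near the shares of all genes. In the shLSD1 and shG9a lines 28.6% and 57.1% were downregulated, above those shares. The p24 protein TMED7 had 33.1, 7.26, 21.8 and 18.8 FPKM in the inhibitor table, and fell by 2.05 on the log2 scale with SP2509. LMAN1, the lectin receptor that carries glycoproteins such as clotting factors, had 40.0, 40.5, 42.2 and 32.5 FPKM there and was not called, but was downregulated in the shLSD1 line (40.4 to 28.7 FPKM) and in the shG9a line (41.9 to 13.6 FPKM). TMED9, another p24 protein, was downregulated in the shLSD1 line (93.1 to 54.7 FPKM), and SURF4, a receptor for soluble cargo, was upregulated with both inhibitors (76.8 to 142 FPKM).

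Of 11 further genes of the same machinery, 1 was upregulated and 6 downregulated with SP2509, 0 and 3 with UNC0642, 4 and 2 with both, 2 and 0 in the shLSD1 line and 2 and 4 in the shG9a line. MIA2, which helps package large cargo at ER exit sites, was downregulated with SP2509 (11.8 to 3.87 FPKM), UNC0642 (6.43 FPKM) and both (3.90 FPKM), and in the shG9a line (10.95 to 6.27 FPKM). SRPRA, the partner of SRPRB in the receptor, was upregulated with both inhibitors (21.7 to 46.0 FPKM), like SRPRB, and in the shLSD1 line (15.6 to 25.1 FPKM), where the uninduced shG9a library stood at 20.7 FPKM. TRAM2, a relative of TRAM1, rose from 9.23 to 13.9 FPKM with SP2509.

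Of 11 genes of the COPI coat and its GTPases, which serve the return path from the Golgi, 0 were upregulated and 2 downregulated with SP2509, 0 and 1 with UNC0642, 4 and 1 with both, 0 and 0 in the shLSD1 line and 1 and 1 in the shG9a line. ARF4 had 71.0, 51.1, 84.8 and 250 FPKM in the inhibitor table, and with both inhibitors its rise of 1.80 on the log2 scale was above that of any of the 35 genes. Of 13 genes of the ER membrane complex and tail-anchor insertion, the other route into the ER membrane, 0 and 2 were called up and down with SP2509, 0 and 1 with UNC0642, 3 and 2 with both, 2 and 0 in the shLSD1 line and 2 and 0 in the shG9a line. SGTA, a cochaperone of tail-anchored proteins, was upregulated with both inhibitors (17.1 to 38.4 FPKM) and EMC2, a subunit of the membrane complex, downregulated (7.50 to 2.76 FPKM). The median log2 change of the COPI list with SP2509 was -0.10 and that of the insertion list -0.04, against -0.54 for the 35 genes and -0.21 for all genes. It was -0.53 for the 11 further genes of the same machinery, -0.47 for the 10 regulators and -0.22 for the cargo receptors and p24 proteins.

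Gene length moved with the change in some comparisons. The 6 of the 35 genes with transcripts of up to 2500 bases had a median log2 change of 0.05 with SP2509, 0.26 with UNC0642 and 0.48 with both, and the 29 longer ones -0.64, -0.15 and 0.07. Among all protein-coding genes tested the short and long medians were -0.17 and -0.21, 0.01 and -0.005, and 0.22 and -0.05. In the shLSD1 line the 35 genes divided as -0.17 and -0.08, and in the shG9a line as -0.04 and -0.32. SEC61G and KDELR3 are among the 6, and the part of length in these results was not tested.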

How the data were processed

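RNA from 8 Kyse510 libraries was sequenced, and the authors filtered the reads, aligned them to GRCh38.87 and deposited 2 tables of gene expression as FPKM. The aligner, the counting tool and the strand setting are not given in the sources used here. Library totals were recovered from the FPKM steps of single-exon genes, and gene lengths were chosen so that all values of a gene were whole reads within 0.02, which gave 99.6% to 99.8% of the totals and left 1 gene per table without whole reads. Genes with at least 1 FPKM in at least 1 of the 2 libraries were compared as ratios of (FPKM + 1), with two-sided exact binomial tests given the totals and no adjustment. Groups followed the sample labels. The steps were tested on simulated data for the shLSD1 comparison, where 97.8% of 27473 genes got their exact reads, 68 of 76 genes changed by 0.5 on the log2 scale were called, as were all 59 at 1.0 and all 65 at 2.0, and 69 of 12472 unchanged genes were also called. The simulated reads used the lengths and read levels recovered here and varied by counting error only. The simulation therefore cannot show that those lengths are right, or how often unchanged genes are called between real libraries. Named with all values are the 3 largest rises and falls among the 35 genes in each comparison, the SEC61 trimer and the paralog groups. Genes named from other lists are the largest rise or fall of their list in a comparison, or regulators and targets listed by name. SSR4 is named in addition, as a TRAP subunit outside the 35, and was picked after its values were seen. The rest of the 35 are described briefly, and the cell type markers named singly were picked after their values were seen. The 35 genes and all lists were chosen with earlier results of these data known. Promoters came from RefSeq (GRCh38.p14). Alternatives were a pseudocount of 0.1, no filter, a filter of 5 FPKM, a fold of 2, centring on the median, adjusted p, fold alone, the smallest length, and the mean of both uninduced lines. Python 3.11.15, NumPy 2.4.6, SciPy 1.17.1 and pandas 2.3.3 were used.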

Additional observations from a re-analysis of the deposited data

Results flagged for a closer look

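XBP1, the transcription factor of the unfolded protein response known for its targets among these genes, moved in opposite directions with Dox in the 2 hairpin lines. Its log2 change was 0.48 in the shLSD1 line (61.4 to 86.2 FPKM, 3300 and 4572 reads) and -1.22 in the shG9a line (68.6 to 29.0 FPKM, 3435 and 1519 reads). Each line has 1 library without and 1 with Dox, and the difference between the lines was not tested. The uninduced libraries, at 61.4 and 68.6 FPKM, were closer to each other than either was to its Dox library. Centred on the median, the change in the shLSD1 line was 0.37 and no longer passed the fold threshold.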

How the results depend on the processing

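With 17 exceptions, the counts and medians of the 35 genes stayed near the main values (89 of 106 recomputed values) and none reversed. Near means a count within 1.5-fold of the main count, or a median within 0.1 on the log2 scale. By this rule the 21 genes downregulated in the shG9a line after centring, against 14, were still counted as near. At a fold of at least 2, SP2509 had 0 genes up and 6 down (6.92% and 12.05% of all genes tested), UNC0642 0 and 1 (3.86% and 2.22%), both inhibitors 3 and 0 (11.95% and 8.49%), the shLSD1 line 0 and 0 (2.67% and 2.51%), and the shG9a line 0 and 6 (4.19% and 5.30%). A pseudocount of 0.1 gave 4 upregulated genes in the shLSD1 line in place of 2, against 27.7% of all genes. Among genes at 5 FPKM or more in both libraries, the median log2 shift was -0.09 with SP2509, -0.004 with UNC0642, 0.04 with both, 0.11 in the shLSD1 line and 0.14 in the shG9a line. Centred on these, the shLSD1 line had 0 genes up and 9 down (15.0% and 14.3% of all genes) with a median of -0.21, and the shG9a median was -0.42. Against the mean of both uninduced lines, the shLSD1 line had 1 gene up and 7 down (22.3% and 9.81% of all genes). The shG9a line then had 3 up and 14 down (30.85% and 16.01% of all genes), with a median of -0.19 in place of -0.28, against 0.18 for all genes. XBP1 in the shLSD1 line was no longer called after centring. Of the 70 single-gene calls recomputed, centring ended 7, a pseudocount of 0.1 ended none, and of 23 in the hairpin lines the mean of both uninduced lines ended 1 (SAR1B in the shLSD1 line). The cause of these moves was not tested. No paired analysis was possible because each condition has 1 library and no replicate numbers are shared. With 1 library per condition, no library could be left out. At 22 to 322 reads, KDELR3 and SRP19 have the widest fold intervals printed.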
